A study of Homo sapiens with 24 samples.

Results

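The 6 libraries described here are from HK-2 cells. Cells in which both YY1 and KDM5C were knocked down are compared with cells in which only KDM5C was. Both groups have little KDM5C, and the intended difference between them is the YY1 hairpin. The libraries are 6 of the 24 RNA-seq libraries of the series, chosen by their labels alone. There are 3 replicates of shKDM5C (libraries HK2_shKDM5C) and 3 of the double knockdown (libraries HK2_Dsh). HK-2 is an immortalized proximal tubular epithelial line from adult human kidney, and both groups were unstimulated cultures in DMEM with serum. All groups carried lentiviral hairpin vectors from the pLKO.1 backbone and had been selected with puromycin. shKDM5C cells carried a hairpin against KDM5C, and the double-knockdown cells were made from YY1-depleted cells that were infected with a second vector, which carried the KDM5C hairpin and a GFP label, and were selected by both puromycin and green fluorescence. The double-knockdown cells therefore differ from shKDM5C cells in the second vector, the GFP label and the second selection as well as in YY1. The KDM5C hairpin may differ between the groups too. These differences cannot be told apart here. Which of the hairpins of each gene was used is not given in the sources used here, and neither is whether the replicates of these libraries are separate cultures, although the study's methods speak in general of independent repeats, so the p-values measure only the spread between these samples. The study had 4 groups in HK-2 and the same 4 in ACHN renal cancer cells, and it asked whether loss of YY1 acts differently where KDM5C is lost.

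KDM5C is a demethylase that removes methyl groups from lysine 4 of histone H3, a mark found at active promoters and enhancers, and it has been linked to both repression and activation of genes. YY1 is a ubiquitous zinc finger transcription factor that binds a short DNA motif near the start of many genes, among them many genes of ribosomes and mitochondria, and it can activate or repress depending on its partners. It also helps to join enhancers to promoters, as CTCF does for longer loops. The proximal tubule, from which HK-2 cells derive, reabsorbs most of the filtered water and solutes, and its cells respond to injury by losing epithelial features and producing cytokines and matrix.

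The targeted genes were examined first. YY1 (ENSG00000100811, chromosome 14, 100238298 to 100282792, GRCh38) had 274, 216 and 228 CPM, that is read counts scaled to library size with TMM factors over the 12 HK-2 libraries, in the 3 shKDM5C replicates and 76, 75.5 and 73.1 CPM in the double-knockdown replicates. The groups did not overlap, and all 3 double-knockdown libraries lay within a narrow range. The log2 fold change (log2FC, double knockdown over shKDM5C) was -1.68 (standard error, SE, 0.134, adjusted p = 0.001, edgeR quasi-likelihood test), and -1.56 (SE 0.052, adjusted p = 9.38e-17) when shKDM5C replicate 1 was left out. The YY1 level of the double-knockdown cells, 74.9 ± 1.55 CPM (SD, n = 3), lay near the 64.7 ± 3.51 CPM of cells with the YY1 hairpin alone, which had fallen from 211 ± 6.88 CPM in control cells (shCtrl). KDM5C (ENSG00000126012, chromosome X, 53191321 to 53225422) had 37.3, 68.4 and 67.4 CPM in shKDM5C and 68.2, 65.8 and 72.2 CPM in double-knockdown cells. Replicates 2 and 3 of shKDM5C lay inside the range of the double knockdown, while replicate 1 was lower. KDM5C did not pass the test, with a log2 fold change of 0.25 (adjusted p = 0.497) and of 0.02 without replicate 1 (adjusted p = 0.81). Both groups lay well under the 194 ± 2.89 CPM of shCtrl cells. Of the paralogs, KDM5B had 219, 123 and 119 CPM in shKDM5C and 192, 189 and 191 CPM in double-knockdown cells, and it was called higher without replicate 1 (0.66, adjusted p = 1.59e-10) but not with it (0.31, adjusted p = 0.428). KDM5A was not called in either fit (adjusted p = 0.494 and 0.273), nor was YY2, a retroposed copy of YY1 (adjusted p = 0.0912 and 0.0522). ZFP42, the YY1 relative known as REX1, had 0 counts in all 6 libraries.

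shKDM5C replicate 1 stood apart from the other 5 libraries. It held 15926561 counts on genes, against 16675904 to 18732758 in the others, and 22966 genes with a count, against 24784 to 25011. Its mitochondrial genes took 11.8% of the counts, where the other 5 libraries had 4.75% to 5.28%, and its 50 most abundant genes took 20.7%, against 14.8% to 14.9%. Of the 16042 genes tested, 3485 were over 2-fold from the mean of the other 2 replicates in replicate 1, and 392 to 415 were in any double-knockdown library. The deviation followed the base composition of the transcripts. Across 15854 genes, which are not independent, the Spearman correlation of the deviation with the GC content of the longest transcript was -0.648, and with the summed exon length it was 0.26. In the decile of genes with the highest GC content (median 63.9%) replicate 1 deviated from the other 2 by a median of -1.05 on the log2 scale, and in the lowest decile (median 36.7%) by 0.57. The 6 genes farthest off on the low side included APOE and MDK, and those on the high side included MT-ATP8 of the mitochondrial genome, at 321, 56.4 and 52 CPM. APOE, a lipoprotein component, had 11.5, 126 and 106 CPM in the 3 shKDM5C replicates and 130.4, 143 and 141 in the double knockdown, and MDK, a heparin-binding growth factor, had 23.2, 210.2 and 199.7 and then 362, 358 and 367. For both genes replicates 2 and 3 agreed closely and replicate 1 alone was low. The log2 fold changes of the 6-library comparison correlated with GC content at 0.305, and those without replicate 1 at 0.0261. Fold changes and list counts of the comparison are therefore given with all 6 libraries and again without replicate 1, and the part of this library's composition in each 6-library value was not tested beyond that.

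**Figure D1:**
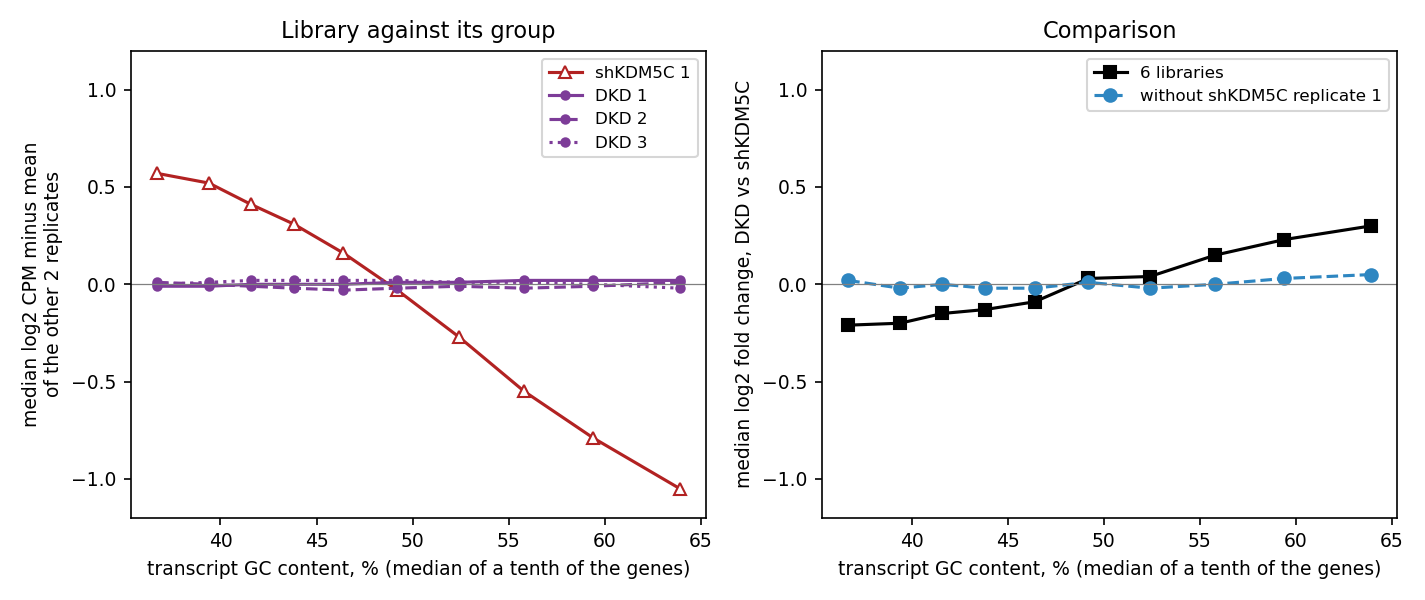
Left, median deviation of a library from the mean of the other 2 replicates of its group (log2 CPM, vertical axis) for the deciles of transcript GC content (horizontal axis, percent), for shKDM5C replicate 1 (open triangles) and the 3 double-knockdown replicates (circles). Right, median log2 fold change of double-knockdown against shKDM5C cells for the same deciles. shKDM5C 1 runs from 0.57 to -1.05 while the double-knockdown lines stay near 0, and the slope of the comparison seen with 6 libraries (-0.21 to 0.30) is nearly absent without that library (-0.02 to 0.05).

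With all 6 libraries, 896 genes were lower and 1005 higher in double-knockdown than in shKDM5C cells at an adjusted p-value under 0.05, 5.59% and 6.26% of the 16042 genes tested. Without replicate 1, 3501 genes were lower and 3696 higher, 21% and 22.2% of 16633. The smaller set lay almost wholly inside the larger one, since 895 of the 896 lower and all 1005 higher genes were called in the same direction in both fits and 0 genes in opposite directions. Requiring in addition a log2FC of 1.5 or more in size left 188 lower genes (1.17%) and 313 higher genes (1.95%) with 6 libraries, and 260 (1.56%) and 500 (3.01%) without replicate 1. The median log2 fold change over all genes tested was -0.01 and 0.00, near 0 in both fits. The call counts with 6 libraries turned on the method, since DESeq2 called 1539 lower and 1585 higher and limma with sample quality weights 3564 and 3713, and with 1 double-knockdown library left out as few as 143 lower and 240 higher genes were called.

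The 14 lower genes with the largest fold changes, taken among genes called in both fits without overlap of the groups and with at least 5 CPM in the higher group, included PAX2, ID3, SMAD9, ATOH8 and ZBED2. In what follows, paired values are for shKDM5C and then for double-knockdown cells, each with replicates 1, 2 and 3 in order. PAX2 (ENSG00000075891, chromosome 10, 100735603 to 100829941), a paired-box factor needed for kidney development, had 15.9, 28.5 and 36.2 CPM in shKDM5C and 2.02, 2.24 and 1.26 CPM in double-knockdown cells (log2FC -3.86, SE 0.377, adjusted p = 0.00189, and -4.13, adjusted p = 7.41e-15, without replicate 1). Its level was 9.81 ± 1.75 CPM in shCtrl and 2.77 ± 0.493 in shYY1 cells (SD, n = 3), so shKDM5C cells held the highest level of the 4 groups. ID3 (ENSG00000117318, chromosome 1, 23557918 to 23559794), an inhibitor of basic helix-loop-helix factors and a target of BMP signals, had 68.1, 234 and 234 CPM in shKDM5C and 34.6, 30.5 and 30.9 CPM in double-knockdown cells (log2FC -2.48, SE 0.436, adjusted p = 0.0139, and -2.87, adjusted p = 2.82e-20, without replicate 1). Replicate 1 lay far below replicates 2 and 3 here, yet above all double-knockdown libraries. SMAD9, a signal transducer of BMP receptors, fell from 17, 8.12 and 10.7 to 1.55, 2 and 1.15 CPM (log2FC -2.92, adjusted p = 0.00377, and -2.58 without replicate 1). ATOH8, a basic helix-loop-helix factor, fell from 7, 15.9 and 12.6 to 1.25, 1.18 and 0.804 CPM (log2FC -3.45, adjusted p = 0.00237, and -3.71 without replicate 1). ZBED2, a zinc finger factor, went from 5.57, 5.11 and 7.29 to 0.417, 0.648 and 0.172 CPM (log2FC -3.84, adjusted p = 0.00251, and -3.89 without replicate 1). Its mean was 15.1 for shCtrl and 15.4 for shYY1, so both groups with the KDM5C hairpin lay below the groups without it.

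SLC34A2 (ENSG00000157765, chromosome 4, 25655301 to 25678748), a sodium-phosphate cotransporter, had 12.8, 12.6 and 12 CPM in shKDM5C and 0.476, 0.295 and 0.689 CPM in double-knockdown cells (log2FC -4.65, SE 0.289, adjusted p = 0.00059, and -4.63, adjusted p = 1.37e-12, without replicate 1). In shCtrl and shYY1 cells it was at 0.234 ± 0.206 and 0.235 ± 0.211 CPM (SD, n = 3), so of the 4 groups only shKDM5C cells held it above 1 CPM. STUM (ENSG00000203685, chromosome 1, 226548800 to 226609214) had the largest log2 fold change on the lower side, from 3.21, 6.91 and 5.87 CPM to 0.179, 0.0589 and 0.115 CPM (log2FC -5.42, adjusted p = 0.00166, and -5.68 without replicate 1), with only 6 counts over the 3 double-knockdown libraries. DHRS9, a short-chain dehydrogenase that acts on retinol, had 32.8, 32.3 and 30.4 CPM and then 3.45, 3.83 and 4.71 CPM (log2FC -2.99, adjusted p = 0.00059, and -2.96 without replicate 1), and its 3 shKDM5C libraries lay close together. THBS1, the matrix glycoprotein thrombospondin, was the most abundant of the 14 and fell from 1159.6, 591 and 639.6 to 138, 127 and 136 CPM (log2FC -2.58, adjusted p = 0.00228, and -2.20 without replicate 1). LAD1, a component of basement membranes, had 55.1, 75.2 and 69.1 CPM and then 8.81, 9.49 and 7.98 CPM (log2FC -2.92, adjusted p = 0.00059, and -3.04 without replicate 1). NEBL, an actin-binding protein, had 26.8, 12 and 12.4 CPM and then 1.13, 2 and 2.76 CPM (log2FC -3.11, adjusted p = 0.00663, and -2.62 without replicate 1). HR, a corepressor of nuclear receptors, had 10.8, 15.3 and 15 CPM and then 0.655, 1.47 and 1.49 CPM (log2FC -3.49, adjusted p = 0.00169, and -3.63 without replicate 1). LAD1, HR and the zinc finger gene ZNF362 were also lower in shYY1 than in shCtrl cells, with log2 fold changes of -2.06, -2.23 and -3.18. The long non-coding RNA LINC02532 fell from 44.3, 28.2 and 32.7 to 4.28, 5.66 and 4.54 CPM (log2FC -2.86, adjusted p = 0.00105, and -2.65 without replicate 1).

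The 14 higher genes with the largest fold changes, taken by the same rule, were led by PAPPA2 and MMP1. PAPPA2 (ENSG00000116183, chromosome 1, 176463171 to 176845605), a protease that cleaves insulin-like growth factor binding proteins, had 0.428, 0.369 and 0.274 CPM in shKDM5C and 25.5, 27.4 and 28 CPM in double-knockdown cells (log2FC 6.23, SE 0.223, adjusted p = 0.000128, and 6.36, adjusted p = 1.8e-16, without replicate 1). It was already 5.79 ± 1.04 CPM in shYY1 against 0.307 ± 0.0999 CPM in shCtrl cells (SD, n = 3). MMP1 (ENSG00000196611, chromosome 11, 102789920 to 102798160), the interstitial collagenase, had 7.57, 5.17 and 5.21 CPM in shKDM5C and 174, 159 and 175 CPM in double-knockdown cells (log2FC 4.83, SE 0.195, adjusted p = 0.000157, and 5.03, adjusted p = 1.38e-21, without replicate 1). All other HK-2 groups were low for it, with 7.26 ± 0.932 for shCtrl and 10.1 ± 0.463 for shYY1. INHBE (ENSG00000139269, chromosome 12, 57452323 to 57459280), an activin subunit, had 2.93, 7.64 and 6.8 CPM and then 79, 76.4 and 67.9 CPM (log2FC 3.67, SE 0.329, adjusted p = 0.00156, and 3.37, adjusted p = 2.51e-17, without replicate 1), against 7.97 for shCtrl and 6.99 for shYY1. NT5E, the ectonucleotidase CD73 that makes adenosine, rose from 32.6, 20.0 and 23.7 to 256, 233 and 262 CPM (log2FC 3.30, adjusted p = 0.00059, and 3.52 without replicate 1).

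The cytokine IL11 had 0.643, 4.38 and 3.67 CPM in shKDM5C and 35, 28.4 and 35.9 CPM in double-knockdown cells (log2FC 3.48, adjusted p = 0.00765, and 3.04 without replicate 1), and its replicate 1 lay under replicates 2 and 3. The ligand WNT9A rose from 0.5, 1.37 and 0.932 to 10.1, 9.43 and 12.7 CPM (log2FC 3.48, adjusted p = 0.00184, and 3.21 without replicate 1). The membrane-anchored semaphorin SEMA7A rose from 1.07, 3.32 and 2.47 to 32.5, 23.6 and 33.3 CPM (log2FC 3.68, adjusted p = 0.00195, and 3.36 without replicate 1). For these 3 genes shKDM5C cells lay below shCtrl cells, which had 9.9, 4.77 and 9.12 CPM, and double-knockdown cells lay above them. The proteoglycan decorin, DCN, had 0.214, 0.369 and 0.384 CPM and then 6.72, 7.96 and 7.24 CPM (log2FC 4.44, adjusted p = 0.00059, and 4.26 without replicate 1). CA9, a carbonic anhydrase induced by hypoxia, had 0, 0.896 and 1.21 CPM and then 9.04, 6.84 and 10.3 CPM (log2FC 3.56, adjusted p = 0.0167, and 3.05 without replicate 1). IL21R, the receptor of interleukin 21, had 1.21, 0.105 and 0.219 CPM and then 5.12, 4.54 and 5.97 CPM (log2FC 3.44, adjusted p = 0.0198, and 4.96 without replicate 1), so its fold change was larger without replicate 1, the highest of the shKDM5C libraries. LCP1, an actin-bundling protein, rose from 0.568 to 5.86 mean CPM (log2FC 3.33, adjusted p = 0.00195, and 3.11 without replicate 1). WFDC3 (log2FC 4.44, adjusted p = 0.00251, and 4.05 without replicate 1), LINC02970 (log2FC 4.54, adjusted p = 0.000661, and 4.28 without replicate 1) and LINC02246 (log2FC 3.63, adjusted p = 0.00166, and 4.05 without replicate 1) rose to means of 7.22, 9.99 and 14.7 CPM. PAPPA2, DCN, WFDC3, LINC02970 and IL21R each had under 25 counts over the 3 shKDM5C libraries, so the size of their fold changes rests on few counts.

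**Figure D2:**
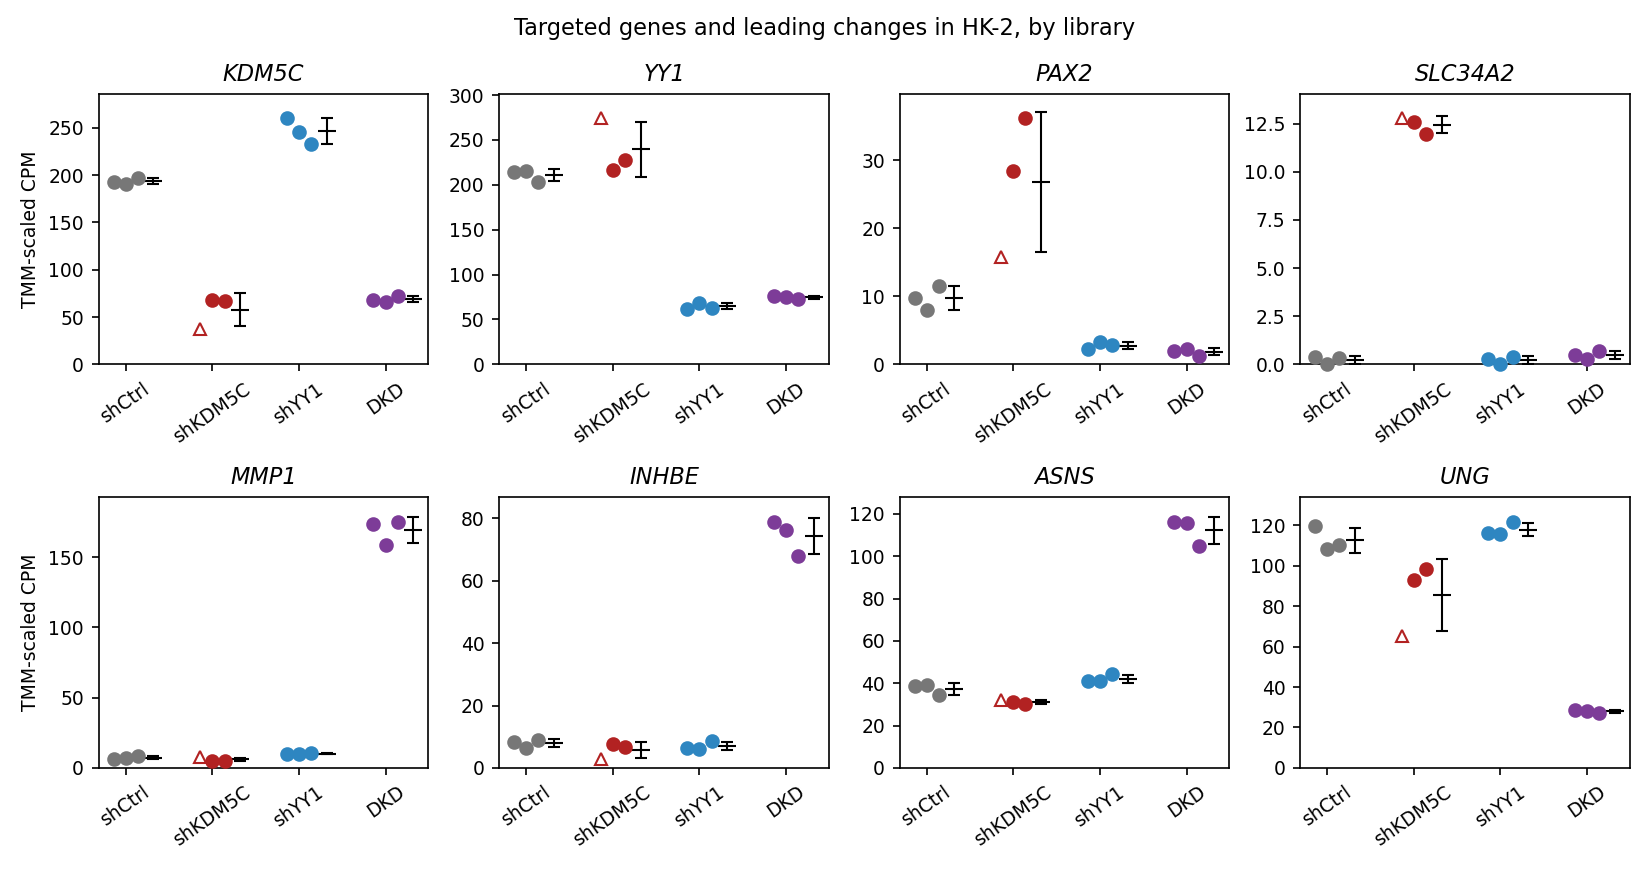
TMM-scaled CPM (vertical axis, linear, each panel from 0) of 8 genes in the 12 HK-2 libraries by group (horizontal axis); points are libraries, the open triangle is shKDM5C replicate 1, and bars show mean and SD (n = 3). KDM5C is low in shKDM5C and double-knockdown (DKD) cells, YY1 is low in shYY1 and DKD cells, and the other 6 genes show DKD libraries outside the range of shKDM5C libraries, lower for PAX2, SLC34A2 and UNG and higher for MMP1, INHBE and ASNS.

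**Figure D3:**
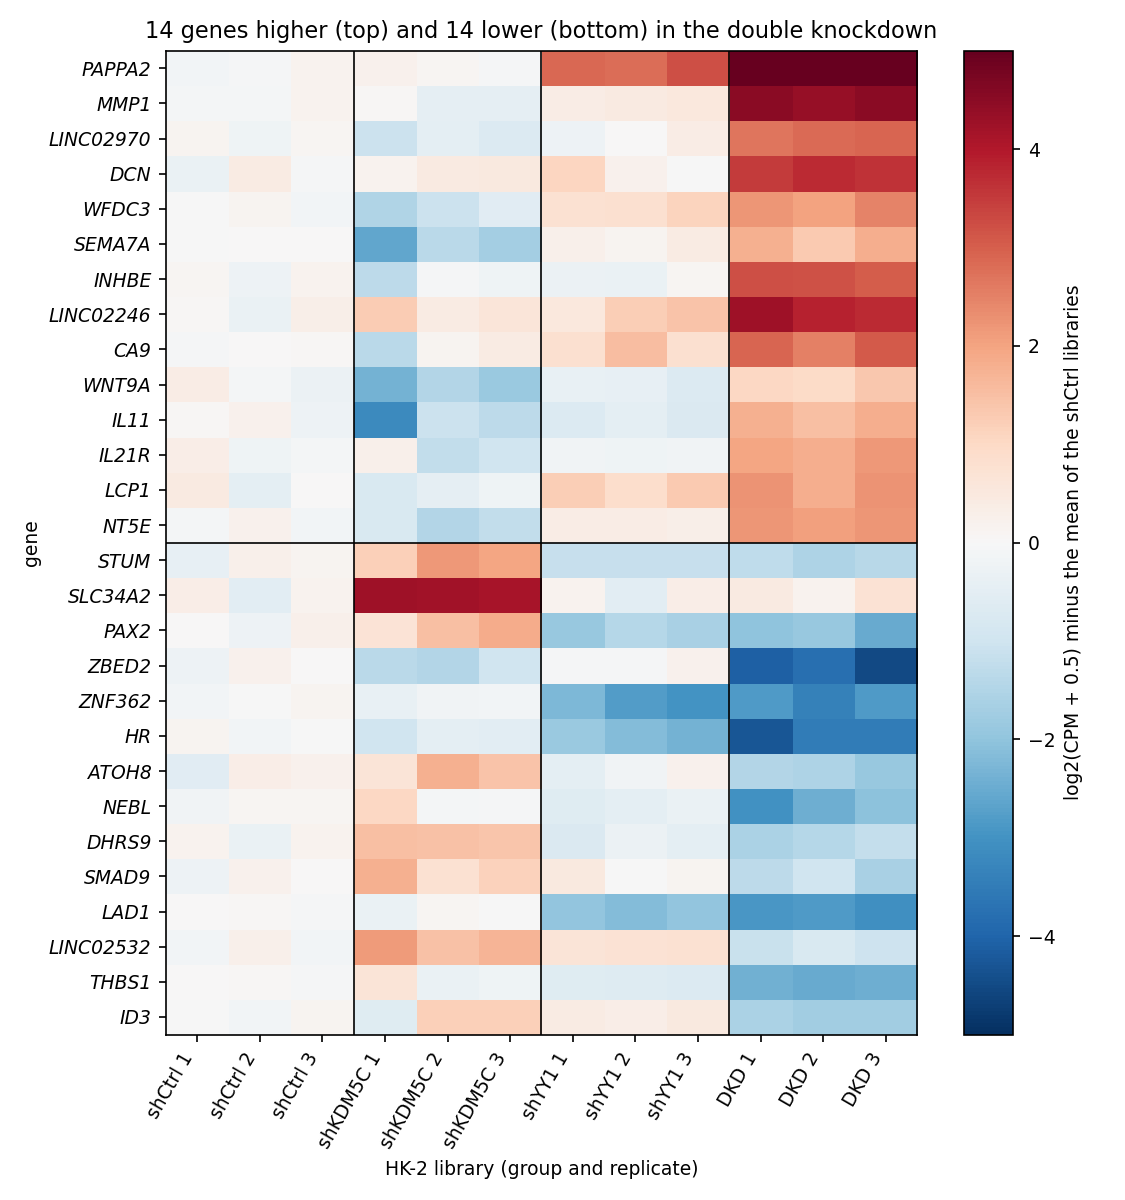
Heatmap of log2(CPM + 0.5) minus the shCtrl mean (colour, cut at -5 and 5, so PAPPA2 in the double knockdown is saturated) for 14 higher and 14 lower genes that led by fold change (rows) in the 12 HK-2 libraries (columns). SLC34A2, STUM, DHRS9, SMAD9 and LINC02532 stand above shCtrl in shKDM5C cells and do not in double-knockdown cells, while MMP1, INHBE and LINC02970 differ from shCtrl by much more in double-knockdown cells than in either single knockdown.

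Gene lists were then counted, and their counts are to be read against the 5.59% lower and 6.26% higher genes of the 6-library fit and the 21% and 22.2% without replicate 1. For the genes named below that were called with 6 libraries, the 3 values of one group lay wholly above or below those of the other. This was common, with 3364 genes wholly below and 3491 wholly above among the 16042 tested, so it adds no support of its own. Of the S phase list, 17 of 43 tested members were lower and 0 higher with all 6 libraries (median log2FC -0.59). Without replicate 1, 32 were lower and 0 higher (median -0.56). Members with a low p-value were UNG, which removes uracil from DNA, GINS2, MCM6 and MCM4 of the replicative helicase, and CDC6, which loads it. UNG (ENSG00000076248, chromosome 12, 109097574 to 109110992) had 65.5, 92.8 and 98.5 CPM in shKDM5C and 28.5, 28 and 27.3 CPM in double-knockdown cells (log2FC -1.61, SE 0.175, adjusted p = 0.0025, and -1.77, adjusted p = 1.42e-15, without replicate 1). GINS2 fell from 28.1, 30.6 and 29.4 to 13.3, 9.37 and 11.5 CPM (log2FC -1.37, adjusted p = 0.00387, and -1.39 without replicate 1). MCM6 fell from 188, 172 and 165 to 97.2, 96.1 and 87.9 CPM (log2FC -0.90, adjusted p = 0.00489, and -0.84 without replicate 1). MCM4 fell from 465, 446 and 447 to 276, 261 and 258 CPM (log2FC -0.77, adjusted p = 0.00559, and -0.75 without replicate 1). CDC6 fell from 97.5, 91.7 and 87.3 to 55, 48.6 and 51.3 CPM (log2FC -0.83, adjusted p = 0.00622, and -0.79 without replicate 1). In these 5 genes the double-knockdown libraries lay below every shKDM5C library, and the difference of shYY1 from shCtrl cells did not pass the test (adjusted p = 0.403, 0.994, 0.185, 0.527 and 0.0814).

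Of the G2/M list, 6 of 54 tested members were lower and 0 higher with all 6 libraries (median log2FC -0.31). Without replicate 1, 24 were lower and 11 higher (median -0.09), and the list lay a median of 0.34 above the other replicates in shKDM5C replicate 1. TMPO, a nuclear lamina protein, fell from 827, 545 and 581 to 306, 299 and 279.9 CPM (log2FC -1.14, adjusted p = 0.00884, and -0.93 without replicate 1). CBX5, the heterochromatin protein HP1 alpha, fell from 1007, 486 and 469 to 253, 269.5 and 258 CPM (log2FC -1.33, adjusted p = 0.0304, and -0.87 without replicate 1). AURKA, a mitotic kinase, fell from 142, 146 and 147 to 104, 105 and 113 CPM (log2FC -0.43, adjusted p = 0.041, and -0.45 without replicate 1). NDC80, of the outer kinetochore, had 69.4, 49 and 47.4 CPM and then 35.3, 30.9 and 34.5 CPM (log2FC -0.72, adjusted p = 0.044, and -0.52 without replicate 1). Of the cell cycle and apoptosis genes JAM3, KNTC1, SMC2, SMC4, LMNB1 and FOXM1, which the study had singled out from its ACHN libraries, JAM3, FOXM1 and SMC2 were called with 6 libraries. JAM3, a junctional adhesion molecule, fell from 43.9, 39.4 and 39.2 to 15.2, 16.9 and 16.4 CPM (log2FC -1.33, adjusted p = 0.00202, and -1.28 without replicate 1). FOXM1, a factor of mitotic gene transcription, fell from 201, 196 and 208 to 145, 141 and 130.1 CPM (log2FC -0.54, adjusted p = 0.0233, and -0.54 without replicate 1). SMC2, a condensin subunit, had 400.4, 183 and 191 CPM and then 110.4, 116 and 117 CPM (log2FC -1.17, adjusted p = 0.0465, and -0.71 without replicate 1), and LMNB1 was called lower only without replicate 1 (-0.63, adjusted p = 9.27e-11, against -0.51, adjusted p = 0.057). The same held for SMC4 (-0.33, adjusted p = 4.47e-06, against -0.63, adjusted p = 0.106). KNTC1 was called in neither fit (adjusted p = 0.284 and 0.175).

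Of regulators of the G1 to S transition, 1 of 22 tested members was lower and 3 higher, and 8 and 5 without replicate 1. CDKN1A (ENSG00000124762, chromosome 6, 36676460 to 36687339), the cyclin-dependent kinase inhibitor p21, had 16.1, 35.5 and 34.5 CPM in shKDM5C and 148, 143 and 152 CPM in double-knockdown cells (log2FC 2.36, SE 0.288, adjusted p = 0.00369, and 2.08, adjusted p = 1.31e-17, without replicate 1), beside 50.2 for shCtrl and 57 for shYY1. E2F2, an activator of S phase genes, fell from 17.5, 27.8 and 27.8 to 6.43, 7.37 and 5.28 CPM (log2FC -1.94, adjusted p = 0.00394, and -2.12 without replicate 1). E2F7, a repressor of them, rose from 92.7, 66.6 and 62.1 to 123, 121 and 135 CPM (log2FC 0.78, adjusted p = 0.0304, and 0.98 without replicate 1). Cyclin D1, CCND1, rose from 52, 43.6 and 44.8 to 89.9, 85.1 and 91.7 CPM (log2FC 0.93, adjusted p = 0.00528, and 1.01 without replicate 1), which was near its shCtrl level of 92.9 CPM.

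Targets of p53 were mostly higher where they were called. Of that list, 1 of 25 tested members was lower and 9 higher with all 6 libraries (median log2FC 0.51). Without replicate 1, 4 were lower and 17 higher (median 0.49). GADD45A, a stress-induced protein of DNA repair and growth arrest, rose from 6.14, 14.4 and 14 to 82.4, 66.7 and 82.6 CPM (log2FC 2.74, adjusted p = 0.00306, and 2.45 without replicate 1). TNFRSF10B, the death receptor DR5, rose from 92.3, 141 and 146 to 468, 469 and 480.0 CPM (log2FC 1.90, adjusted p = 0.00193, and 1.72 without replicate 1). SESN2, a stress-induced inhibitor of mTORC1 signalling, rose from 50.3, 70.0 and 69.5 to 196, 185 and 180.5 CPM (log2FC 1.57, adjusted p = 0.00195, and 1.43 without replicate 1), and the antiproliferative BTG2 had 2.6 and 6.66 mean CPM (log2FC 1.36, adjusted p = 0.00983, and 1.43 without replicate 1). CDKN1A, GADD45A, SESN2 and TNFRSF10B are also known to respond to stresses other than p53 activation. Of the apoptosis machinery, 3 of 41 tested members were lower and 6 higher with all 6 libraries (median log2FC 0.09). Without replicate 1, 11 were lower and 16 higher (median 0.04). BCL2, which protects cells from apoptosis, fell from 64.7, 56.8 and 53 to 17.9, 17.4 and 16.9 CPM (log2FC -1.74, SE 0.138, adjusted p = 0.001, and -1.65, adjusted p = 2.51e-13, without replicate 1), and the proapoptotic PMAIP1 (NOXA) rose from 17.9, 29.7 and 28.2 to 102, 106 and 105 CPM (log2FC 2.05, SE 0.201, adjusted p = 0.00193, and 1.85, adjusted p = 3.72e-16, without replicate 1). The death receptor TNFRSF10A (log2FC 1.26, adjusted p = 0.0039, and 1.17 without replicate 1) and the proapoptotic HRK (log2FC 1.16, adjusted p = 0.00588, and 1.07 without replicate 1) were higher as well.

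The list of ATF4 targets and the unfolded protein response had the highest share of higher members among lists with 14 or more tested genes. With 6 libraries the list of AP-1 and immediate early genes came close, with 12 of 27. The lists were chosen with earlier results of these data known, so this rank is a description only. Cells raise genes of the ATF4 list when amino acids are short or when unfolded proteins collect in the endoplasmic reticulum. Of this list, 0 of 39 tested members were lower and 18 higher with all 6 libraries (median log2FC 0.75). Without replicate 1, 1 was lower and 33 higher (median 0.68). ASNS (ENSG00000070669, chromosome 7, 97852118 to 97872542), asparagine synthetase, had 32.1, 31.4 and 30.3 CPM in shKDM5C and 116, 116 and 105 CPM in double-knockdown cells (log2FC 1.85, SE 0.118, adjusted p = 0.00059, and 1.87, adjusted p = 7.04e-16, without replicate 1). All 3 shKDM5C replicates agreed for this gene. TRIB3, a pseudokinase, rose from 61.5, 93.5 and 90.0 to 346, 318 and 291 CPM (log2FC 1.97, adjusted p = 0.00166, and 1.80 without replicate 1). ATF3, a stress-induced factor, rose from 7.28, 11.1 and 11.6 to 33.9, 31.1 and 28.9 CPM (log2FC 1.65, adjusted p = 0.00395, and 1.47 without replicate 1). CTH, of cysteine synthesis, rose from 17.5, 15 and 13.5 to 38.9, 38.7 and 33.6 CPM (log2FC 1.28, adjusted p = 0.0039, and 1.38 without replicate 1). SLC7A11, which imports cystine, rose from 27.2, 16 and 16.7 to 52.1, 49.8 and 44.6 CPM (log2FC 1.29, adjusted p = 0.0139, and 1.58 without replicate 1). PCK2, a mitochondrial enzyme of gluconeogenesis that the tubule list holds, rose from 21.2, 32.2 and 28.5 to 69.6, 69.4 and 63.2 CPM (log2FC 1.3, adjusted p = 0.00523, and 1.15 without replicate 1). The ATF4 list member called lower without replicate 1, named after its value was seen, was VLDLR, a lipoprotein receptor, with 224 and 165 mean CPM (log2 fold change -0.29 without replicate 1).

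Immediate early genes and cytokines were also mostly higher where they were called. Of the AP-1 and immediate early list, 1 of 27 tested members was lower and 12 higher with all 6 libraries (median log2FC 0.98). Without replicate 1, 2 were lower and 18 higher (median 0.76), and replicate 1 deviated from the other 2 by a median of -0.99 (log2) over this list. FOSL1, an AP-1 subunit, rose from 9.93, 22.5 and 23 to 125, 105 and 124 CPM (log2FC 2.68, adjusted p = 0.0031, and 2.38 without replicate 1). FOSB rose from 3.86, 5.32 and 5.37 to 17.3, 16.4 and 17.7 CPM (log2FC 1.82, adjusted p = 0.00207, and 1.68 without replicate 1). The MAP kinase phosphatase DUSP5 rose from 23.8, 38.6 and 37.9 to 96.9, 89.1 and 97.6 CPM (log2FC 1.5, adjusted p = 0.00491, and 1.31 without replicate 1). KLF6 was higher too (log2FC 0.79, adjusted p = 0.0083, and 0.76 without replicate 1). Of the NF-kB, cytokine and chemokine list, 3 of 29 tested members were lower and 10 higher with all 6 libraries (median log2FC 0.73). Without replicate 1, 5 were lower and 19 higher of 30 tested (median 0.61), and here replicate 1 deviated by -0.71. The chemokine CXCL8 had 51, 54.2 and 56.8 CPM in shKDM5C and 205, 220.4 and 203 CPM in double-knockdown cells (log2FC 1.96, SE 0.116, adjusted p = 0.00059, and 1.92, adjusted p = 2.51e-17, without replicate 1), with replicate 1 close below the other 2. TNFAIP3, an inhibitor of NF-kB, rose from 25.1, 37.8 and 33.8 to 111, 97.7 and 104 CPM (log2FC 1.69, adjusted p = 0.00202, and 1.54 without replicate 1). CSF2, the growth factor GM-CSF, rose from 1.07, 4.43 and 4.28 to 24.8, 24.7 and 26.2 CPM (log2FC 2.93, adjusted p = 0.00728, and 2.54 without replicate 1). CCL20 rose from 1.21 to 4.82 mean CPM (log2FC 1.98, adjusted p = 0.00439, and 1.87 without replicate 1). The monocyte chemokine CCL2 went the other way, from 14.6, 20.6 and 24.3 to 3.93, 5.54 and 2.87 CPM (log2FC -2.27, adjusted p = 0.0051, and -2.44 without replicate 1).

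Of interferon-stimulated genes, 3 of 33 tested members were lower and 4 higher with all 6 libraries (median log2FC 0.30). Without replicate 1, 8 were lower and 14 higher (median 0.21). Although the medians were above 0, the summed level of the list fell. It went from 4663, 3157 and 3102 CPM in shKDM5C to 1949, 1966 and 1985 CPM in double-knockdown cells. The genes named next are the 4 higher ones only. IFIT2 rose from 8.78, 13.2 and 12.1 to 36.8, 35.5 and 35.5 CPM (log2FC 1.66, adjusted p = 0.0025, and 1.51 without replicate 1), and IFIT3 was higher as well (log2FC 0.99, adjusted p = 0.0315, and 1.27 without replicate 1). ISG20 had 0.313 and 3.33 mean CPM (log2FC 3.38, adjusted p = 0.00947, and 3.34 without replicate 1) and SAMD9L 1.92 and 4.68 (log2FC 1.29, adjusted p = 0.0245, and 1.49 without replicate 1).

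**Figure D4:**
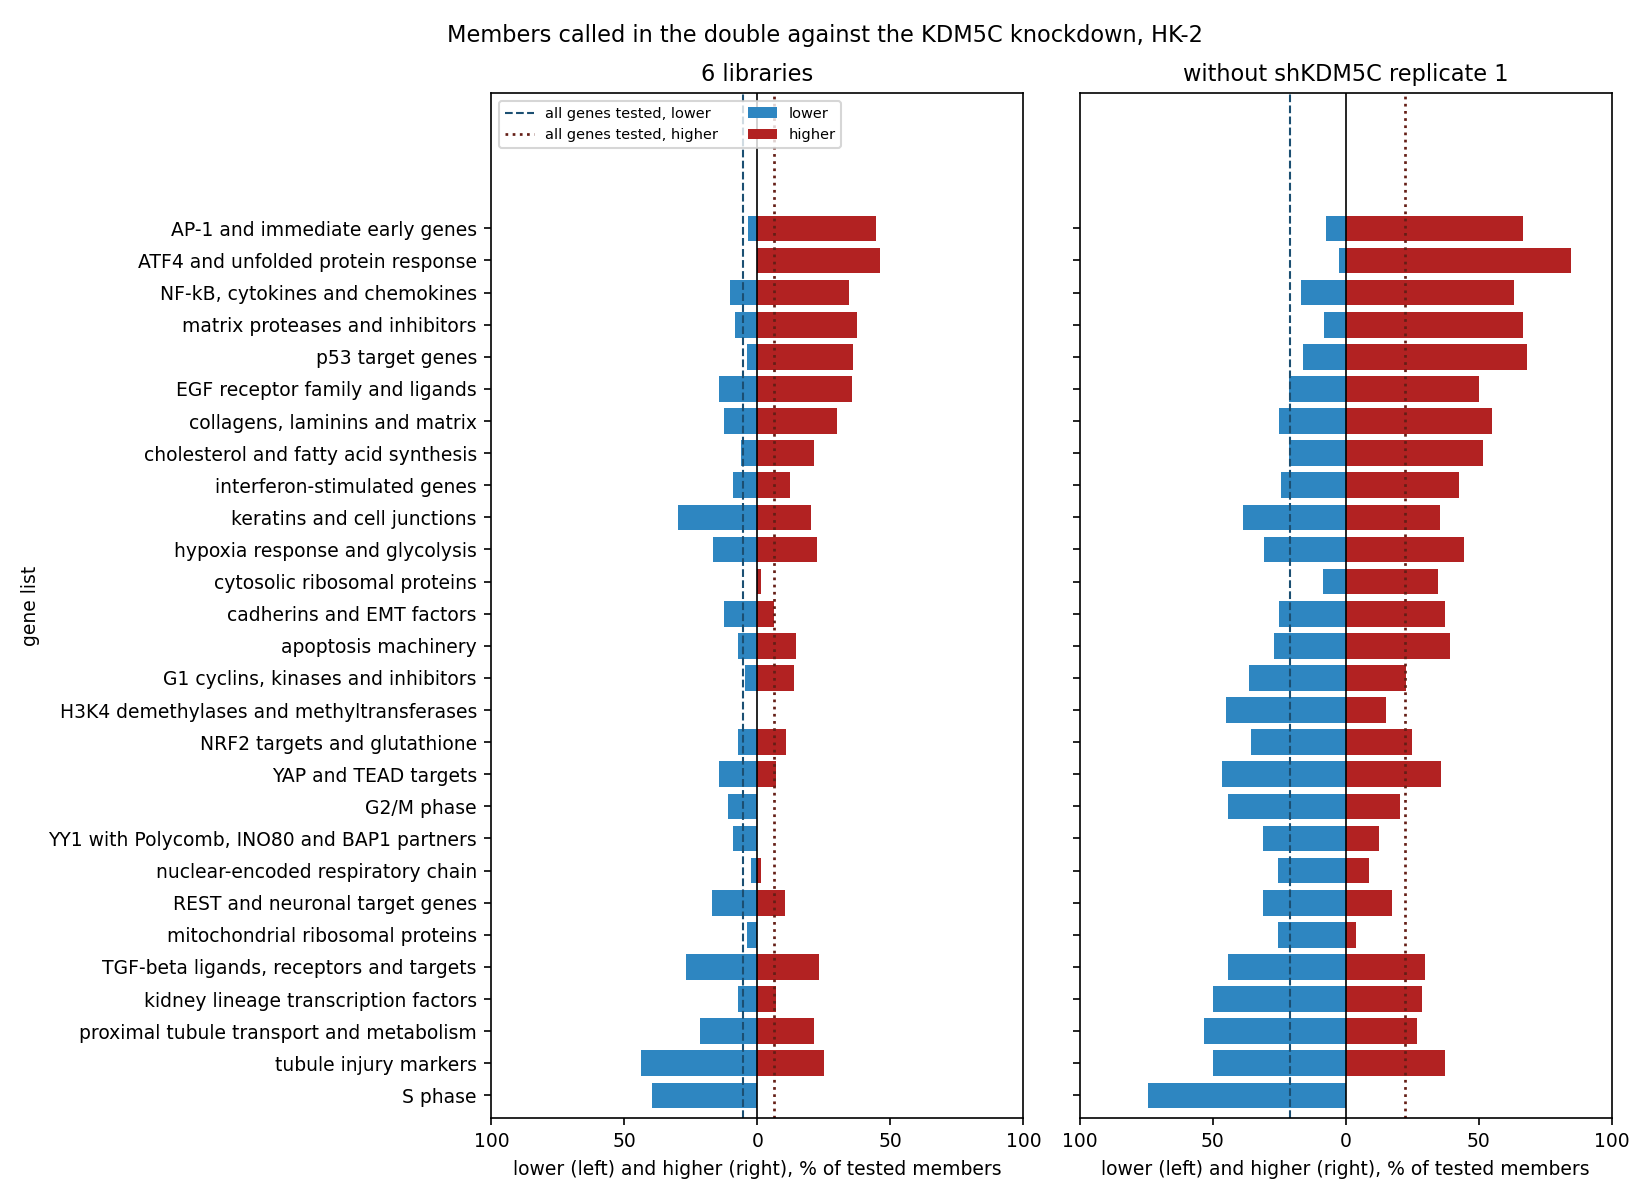
Share of the tested members of each gene list with at least 14 tested members that were called lower (left of 0) or higher (right of 0) in double-knockdown against shKDM5C cells, in percent, with 6 libraries (left panel) and without shKDM5C replicate 1 (right panel); dashed and dotted lines mark the shares over all genes tested. In both panels S phase has lower and no higher members (17 and 32 of 43), and the ATF4 list has mostly higher ones (18 and 33 of 39).

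Genes of the extracellular matrix changed in both directions. Of collagens, laminins and other matrix genes, 5 of 40 tested members were lower and 12 higher with all 6 libraries (median log2FC 0.49). Without replicate 1, 10 were lower and 22 higher (median 0.36). THBS2 rose from 53.6, 62 and 54.5 to 155, 160.3 and 155 CPM (log2FC 1.47, adjusted p = 0.001, and 1.43 without replicate 1). The proteoglycan LUM rose from 14.9, 13.4 and 13.9 to 61.8, 65.6 and 57.5 CPM (log2FC 2.13, adjusted p = 0.00059, and 2.17 without replicate 1), while THBS1 fell as given above. Of the proteases and their inhibitors, 2 of 24 tested members were lower and 9 higher with all 6 libraries (median log2FC 0.50). Without replicate 1, 2 were lower and 16 higher (median 0.53). Beside MMP1 and PAPPA2, the plasminogen activator PLAT rose from 10.2, 11.8 and 12.6 to 55.9, 47.1 and 59.4 CPM (log2FC 2.23, adjusted p = 0.000724, and 2.16 without replicate 1). MMP7, a matrilysin of injured tubules, fell from 213, 281 and 259.9 to 48.9, 43.4 and 44.6 CPM (log2FC -2.46, SE 0.145, adjusted p = 0.00059, and -2.56, adjusted p = 9.77e-20, without replicate 1), and shKDM5C cells had more of it than the 64.1 ± 0.133 CPM of shCtrl cells (SD, n = 3).

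Of TGF-beta ligands, receptors and targets, 7 of 26 tested members were lower and 6 higher, and 12 and 8 of 27 tested without replicate 1. INHBA, the activin A subunit, rose from 121, 88.7 and 90.8 to 547, 519 and 607 CPM (log2FC 2.48, SE 0.164, adjusted p = 0.000609, and 2.64, adjusted p = 1.14e-19, without replicate 1). BMP4 fell from 17.7, 22.6 and 23.4 to 6.31, 6.37 and 5.4 CPM (log2FC -1.82, adjusted p = 0.00195, and -1.93 without replicate 1). ID2, like ID3 a target of BMP signals, fell from 45.3, 80.0 and 80.7 to 23.3, 23.2 and 24.4 CPM (log2FC -1.54, adjusted p = 0.00773, and -1.76 without replicate 1). Of the EGF receptor family and its ligands, 2 of 14 tested members were lower and 5 higher, and 3 and 7 without replicate 1. The ligands TGFA (log2FC 1.46, adjusted p = 0.00306, and 1.65 without replicate 1), AREG (log2FC 1.60, adjusted p = 0.00695, and 1.38 without replicate 1) and EREG (log2FC 0.76, adjusted p = 0.0123, and 0.86 without replicate 1) were higher, as was the receptor inhibitor ERRFI1 (log2FC 0.55, adjusted p = 0.0197, and 0.56 without replicate 1), and LRIG1, which lowers receptor levels, was lower (log2FC -1.28, adjusted p = 0.00885, and -1.42 without replicate 1). Of YAP and TEAD targets, 4 of 28 tested members were lower and 2 higher, and 13 and 10 without replicate 1, with CRIM1 (log2FC -0.76, adjusted p = 0.00767, and -0.70 without replicate 1), ANKRD1 (log2FC -0.72, adjusted p = 0.0351, and -0.58 without replicate 1) and F3 (log2FC -0.73, adjusted p = 0.0418, and -0.82 without replicate 1) lower and NT5E and GADD45A higher.

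Epithelial genes were checked next, since they bear on the HK-2 label. Of 21 proximal tubule markers, 11 passed the filter on low counts. Abundant among them were KRT8, KRT18, GGT1, PAX8 and CDH2, while SLC22A6 and SLC22A8, the organic anion transporters, had 0 counts in all 6 libraries, and LRP2, HNF4A, AQP1 and ANPEP stayed under 0.5 mean CPM. The line thus showed transcripts of tubular epithelium without the defining transporters of the differentiated proximal tubule. Summed over the 21 genes the level was 2863, 3505 and 3407 CPM in shKDM5C and 1989, 1904 and 2027 CPM in double-knockdown cells. The paired keratins KRT8 and KRT18 carried most of this, KRT8 with 1593, 1941 and 1829.9 CPM and then 815, 767 and 861 CPM (log2FC -1.13, SE 0.123, adjusted p = 0.0025, and -1.21, adjusted p = 3.95e-16, without replicate 1) and KRT18 with 514, 594 and 594 CPM and then 242, 217 and 229.9 CPM (log2FC -1.3, SE 0.118, adjusted p = 0.00158, and -1.37, adjusted p = 1.37e-16, without replicate 1). In bulk RNA, fewer cells of a type and less RNA per cell cannot be told apart. Of keratins and junction genes, 9 of 30 tested members were lower and 6 higher with all 6 libraries (median log2FC 0.29). Without replicate 1, 12 were lower and 11 higher of 31 tested (median 0.21). CLDN2, the pore-forming claudin of the proximal tubule, fell from 142, 189.6 and 193 to 72.2, 79.8 and 64.7 CPM (log2FC -1.27, adjusted p = 0.0044, and -1.40 without replicate 1). CLDN16 rose from 18.1, 16.8 and 14.6 to 69.6, 65.3 and 65.2 CPM (log2FC 2.01, adjusted p = 0.000661, and 2.09 without replicate 1). E-cadherin, CDH1, fell from 3.07, 4.01 and 4.66 to 0.595, 0.354 and 0.402 CPM (log2FC -3.10, adjusted p = 0.00268, and -3.24 without replicate 1). Its repressor SNAI2 rose from 0.0714, 0.527 and 0.603 to 4.52, 3.65 and 5.46 CPM (log2FC 3.42, adjusted p = 0.00761, and 3.00 without replicate 1), both at low levels. The splicing regulator ESRP2 of epithelia was lower (log2FC -0.90, adjusted p = 0.0443, and -1.10 without replicate 1). Of the 16 tested cadherin and EMT genes, 2 were lower and 1 higher, and 4 and 6 without replicate 1.

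Of the kidney lineage factors, 1 of 14 tested members was lower and 1 higher, and 7 and 4 without replicate 1. PAX2 fell as given above, whereas its relative PAX8 had 173, 233 and 230.1 CPM and then 306, 299 and 321 CPM, which was called higher only without replicate 1 (0.42, adjusted p = 1.25e-07, against 0.54, adjusted p = 0.051), and LHX1, a factor of early nephron formation, rose from 44.6, 71.1 and 72.6 to 152, 151 and 154 CPM (log2FC 1.28, adjusted p = 0.00818, and 1.09 without replicate 1). Of tubular transport and metabolism, 3 of 14 tested members were lower and 3 higher, and 8 and 4 of 15 tested without replicate 1. The sodium bicarbonate cotransporter SLC4A4 (log2FC -0.91, adjusted p = 0.0345, and -0.63 without replicate 1) and the sodium pump subunit ATP1B1 (log2FC -0.83, adjusted p = 0.0214, and -0.64 without replicate 1) were lower, and the brush border peptidase MME rose from 14.8, 10.1 and 8.17 to 35.5, 32.6 and 30.4 CPM (log2FC 1.58, adjusted p = 0.00728, and 1.85 without replicate 1). Markers of tubule injury moved both ways (7 lower and 4 higher of 16 tested, and 8 and 6 without replicate 1). CD44, a hyaluronan receptor, rose from 224, 169 and 186 to 542, 519 and 576 CPM (log2FC 1.5, adjusted p = 0.00169, and 1.62 without replicate 1). The integrin ITGB8 fell from 327, 159 and 172 to 54.6, 55.2 and 57.5 CPM (log2FC -1.98, adjusted p = 0.00639, and -1.57 without replicate 1). The adhesion molecule VCAM1 fell from 14, 17.8 and 17.3 to 5.71, 7.9 and 5.4 CPM (log2FC -1.37, adjusted p = 0.00855, and -1.46 without replicate 1), still above the 2.17 CPM of shCtrl cells.

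Markers of other cell types were checked beside these. Of 19 markers of fibroblasts, endothelium, immune cells and neurons, 7 passed the filter, and their summed level was 78.5, 73.6 and 68.9 CPM in shKDM5C and 150.4, 162 and 145 CPM in double-knockdown cells. Most of the difference was LUM, with means of 14.1 and 61.6 CPM, and SYT1, COL1A1, DCN and SNAP25 made up most of the rest. The part of other cells in these levels was not tested. The defining PTPRC of leukocytes, CDH5 of endothelium and PDGFRA of fibroblasts had 0 counts in shKDM5C cells and a mean under 0.1 CPM in double-knockdown cells, and KDR and CD3E had 0 counts in both.

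Of cholesterol and fatty acid synthesis, 2 of 33 tested members were lower and 7 higher with all 6 libraries (median log2FC 0.35). Without replicate 1, 7 were lower and 17 higher (median 0.23). ACSS2, which makes acetyl-CoA from acetate, rose from 37.6, 44.3 and 45.3 to 94.3, 93.8 and 85.6 CPM (log2FC 1.11, adjusted p = 0.00316, and 1.03 without replicate 1). The sterol oxidase MSMO1 rose from 120.2, 120.1 and 128 to 214, 222 and 215 CPM (log2FC 0.83, adjusted p = 0.0047, and 0.81 without replicate 1). HMGCS1, the synthase that begins the pathway, fell from 128, 121 and 121 to 64.5, 61 and 67.9 CPM (log2FC -0.93, adjusted p = 0.00346, and -0.90 without replicate 1). Of hypoxia response and glycolysis, 6 of 36 tested members were lower and 8 higher, and 11 and 16 without replicate 1. The glucose transporter SLC2A3 rose from 145, 169 and 176 to 406, 392 and 422 CPM (log2FC 1.32, adjusted p = 0.00166, and 1.24 without replicate 1). NDRG1, a hypoxia-induced gene, rose from 85.3, 111 and 112 to 275, 271 and 313 CPM (log2FC 1.48, adjusted p = 0.00195, and 1.36 without replicate 1). The glycolytic PGAM1 fell from 1084, 1135 and 1137 to 701, 666 and 740.3 CPM (log2FC -0.67, adjusted p = 0.00964, and -0.69 without replicate 1). Of NRF2 targets, 2 of 28 tested members were lower and 3 higher, and 10 and 7 without replicate 1, with NQO1 lower (log2FC -0.91, adjusted p = 0.00495, and -0.95 without replicate 1) and TXNRD1 higher (log2FC 0.56, adjusted p = 0.0186, and 0.60 without replicate 1).

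Of 81 tested cytosolic ribosomal proteins 0 were lower and 1 higher with 6 libraries, the latter RPL9 (log2FC 0.60, adjusted p = 0.0158, and 0.59 without replicate 1), and 7 and 28 without replicate 1. Of the nuclear-encoded respiratory chain, 2 of 79 tested members were lower and 1 higher, and 20 and 7 without replicate 1, and ATP5F1A, of the ATP synthase, had 443, 385 and 373 CPM and then 242, 233 and 235 CPM (log2FC -0.76, adjusted p = 0.00864, and -0.68 without replicate 1). Of mitochondrial ribosomal proteins, 3 of 78 tested members were lower and 0 higher, and 20 and 3 without replicate 1. Of the 13 protein genes of the mitochondrial genome 0 were called with 6 libraries by edgeR, 2 had an unadjusted p under 0.05, and 5 were lower and 1 higher without replicate 1. Their summed level was 114089, 46374 and 47856 CPM in shKDM5C and 42835, 42689.7 and 43331 CPM in double-knockdown cells, so replicate 1 alone was high.

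Of the H3K4 methylation and demethylation genes, 0 of 20 tested members were lower and 0 higher, and 9 and 3 without replicate 1, and 4 had an unadjusted p under 0.05 with 6 libraries (edgeR). DPY30, a subunit of the methyltransferase complexes, was called higher only without replicate 1 (0.46, adjusted p = 0.000505, against 0.51, adjusted p = 0.0534), and the SET domain protein KMT2E lower only without it (-0.44, adjusted p = 4.89e-06, against -0.72, adjusted p = 0.0673). Of YY1 and its Polycomb, INO80 and BAP1 partners, 3 of 32 tested members were lower and 0 higher, and 10 and 4 without replicate 1, where the lower ones with 6 libraries were YY1 itself, CTCF and SFMBT2. CTCF fell from 134, 108 and 109 to 69.6, 68.7 and 67.6 CPM (log2FC -0.77, adjusted p = 0.0124, and -0.66 without replicate 1). SFMBT2, a Polycomb protein, fell from 6.35, 3.85 and 4.28 to 1.49, 0.531 and 0.747 CPM (log2FC -2.38, adjusted p = 0.0141, and -2.13 without replicate 1). Among REST and neuronal genes (5 lower and 3 higher of 29 tested, and 9 and 5 without replicate 1), the neurofilament gene NEFH fell from 155, 148 and 134 to 47.8, 49.7 and 57 CPM (log2FC -1.5, adjusted p = 0.00137, and -1.45 without replicate 1) and the secreted VGF rose from 15.4, 30.9 and 30.8 to 70.1, 68.2 and 62.4 CPM (log2FC 1.38, adjusted p = 0.0183, and 1.12 without replicate 1).

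YY1 binds a short core motif. The 7 bases GATGGCG were searched on both strands, where the opposite strand reads CGCCATC, in the RefSeq promoters (GRCh38), which run from 250 bases before to 50 after a gene's start. Of 27305 promoters 4.35% held the motif. Only 69.8% of the genes tested matched a promoter by symbol, so shares among the lower and higher genes were not compared. The windows of 30 bases below are written 5′ to 3′ on the strand of the gene with the motif in capitals, and are those of 3 named genes that held the motif, picked after their values were seen, with KDM5C shown because it was higher in shYY1 cells and CTCF and CD44 because they were lower and higher in double-knockdown cells.
KDM5C: tgacaaaccaaGATGGCGgcggcggcgctg
CTCF: gcgtcccgtgaCGCCATCgcgcccgctttt
CD44: agcctctgccaggttcggtcCGCCATCctc
The first lies at chrX:53225179-53225208, minus strand, and its motif is on the gene's own strand 11 bases from the RefSeq start. The second lies at chr16:67562353-67562382, plus strand, with the motif on the opposite strand before the start, and the third at chr11:35139191-35139220, plus strand, with the motif on the opposite strand after the start. A match is a description of these letters and says nothing of binding. In shYY1 against shCtrl cells KDM5C had 246 ± 13.7 against 194 ± 2.89 CPM (SD, n = 3, log2 fold change 0.35, adjusted p = 1.54e-05), CTCF 99.2 against 103 (-0.05, adjusted p = 0.579) and CD44 253 against 213 (0.25, adjusted p = 0.000358).

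The YY1 hairpin was also compared in cells without the KDM5C hairpin, shYY1 against shCtrl, which share no library with the comparison above. The double knockdown and this comparison were set side by side. In shYY1 against shCtrl cells, 2366 of 16071 genes were lower (14.7%) and 2305 higher (14.3%). Of the genes lower in double-knockdown against shKDM5C cells (6 libraries) that were tested in both, 47.2% were lower in shYY1 cells too, 18% of the genes lower there, and of the higher genes 33.9% were higher in shYY1 cells, 14.2% of the genes higher there. Without replicate 1 these shares were 32.3% and 47.8% for lower genes and 28.3% and 43.5% for higher genes. Across 15496 genes, which are not independent, the log2 fold changes had a Pearson correlation of 0.33, and of 0.337 without replicate 1 (15721 genes). The fall of YY1 itself differed between both settings by 0.03 on the log2 scale, which did not pass the test (adjusted p = 0.926, and 0.15, adjusted p = 0.159, without replicate 1). The difference of the 2 effects was tested gene by gene as an interaction of the hairpins over all 12 HK-2 libraries. Only double-knockdown cells had the second vector, the GFP label and the second selection, so these enter the interaction as well. A KDM5C hairpin other than that of shKDM5C cells would enter it too. None of these can be told apart from a YY1 effect that depends on KDM5C. The interaction was below 0 for 752 genes (4.4%) and above 0 for 890 (5.21%) of 17093. Without shKDM5C replicate 1 these were 2415 (13.7%) and 2650 (15%) of 17642.

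The named genes with the largest interactions over 12 libraries differed in what the YY1 hairpin did alone. MMP1 rose by 0.48 on the log2 scale in shYY1 cells (adjusted p = 0.015) and by 4.83 in double-knockdown against shKDM5C cells, an interaction of 4.36 (adjusted p = 7.94e-07). INHBE had -0.19 in shYY1 cells (adjusted p = 0.45) and an interaction of 3.85 (adjusted p = 9.11e-05), and LINC02970 had 0.10 (adjusted p = 0.897) and 4.44 (adjusted p = 0.000112). For IL11 (-0.69, adjusted p = 0.00202) the transcript was lower with the hairpin alone, and the interaction was 4.16 (adjusted p = 0.000484). WNT9A had -0.59 (adjusted p = 0.0602) and an interaction of 4.06 (adjusted p = 0.000103). Without replicate 1 the interactions of these 5 genes ran from 3.57 to 4.57, and that of IL21R went from 3.77 to 5.29, above all 5. On the lower side, ZBED2 had 0.03 with the YY1 hairpin alone (adjusted p = 0.892) and an interaction of -3.88 (adjusted p = 0.000101), and ATOH8 -0.19 (adjusted p = 0.619) and -3.26 (adjusted p = 0.00172). LINC02532 rose with the YY1 hairpin alone (0.73, adjusted p = 0.000143), with an interaction of -3.59 (adjusted p = 1.23e-05). The interaction of SLC34A2 was -4.66 (adjusted p = 0.0167) and that of STUM -3.17 (adjusted p = 0.02). Without replicate 1 these 5 ran from -4.63 to -3.37. The interaction of PAPPA2 was 2.03 (adjusted p = 0.00855, and 2.17 without replicate 1) beside 4.20 with the YY1 hairpin alone.

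Over the lists, interactions and differences between lines were counted where they passed an adjusted p of 0.05. Of the 39 ATF4 list members, the interaction was above 0 for 14 and below 0 for 0 with 12 libraries, and 30 and 0 without replicate 1. ASNS had 0.17 with the YY1 hairpin alone (adjusted p = 0.0967) and an interaction of 1.67 (adjusted p = 1.83e-05, and 1.70 without replicate 1). Of the 43 S phase genes the interaction was below 0 for 16 and above 0 for 0, and 30 and 0 without replicate 1, with UNG at -1.68 (adjusted p = 0.000194, and -1.83 without replicate 1). For AP-1 and immediate early genes it was above 0 for 14, or 20 without replicate 1, and for p53 targets above 0 for 7 and below 0 for 1, or 14 and 2 without replicate 1. CDKN1A had 0.18 with the YY1 hairpin alone and an interaction of 2.18 (adjusted p = 0.000869, and 1.91 without replicate 1), and BCL2 -0.19 and -1.55 (adjusted p = 9.41e-05, and -1.45 without replicate 1). For cytosolic ribosomal proteins the called interactions were below 0. In shYY1 cells 76 of 81 were higher (median 0.50), against 1 and 28 in the 6-library and 5-library fits here (median 0.13 and 0.10), and the interaction was below 0 for 16 and above 0 for 0, or 60 and 0 without replicate 1. RPS26 rose by 0.48 with the YY1 hairpin alone and had -0.56 here (adjusted p = 0.0625, and -0.41, adjusted p = 1.59e-05, without replicate 1), an interaction of -1.04 (adjusted p = 0.00238, and -0.87 without replicate 1). Nuclear-encoded respiratory chain genes had 47 of 79 higher in shYY1 cells and an interaction below 0 for 8 and above 0 for 0, or 40 and 1 without replicate 1. Of cholesterol and fatty acid genes 23 of 33 were lower and 0 higher in shYY1 cells, and the interaction was above 0 for 11 and below 0 for 1, or 23 and 3 without replicate 1. Of collagens and other matrix genes 24 of 39 were lower and 4 higher in shYY1 cells, and the interaction was above 0 for 15 and below 0 for 5, or 26 and 5 without replicate 1.

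**Figure D5:**
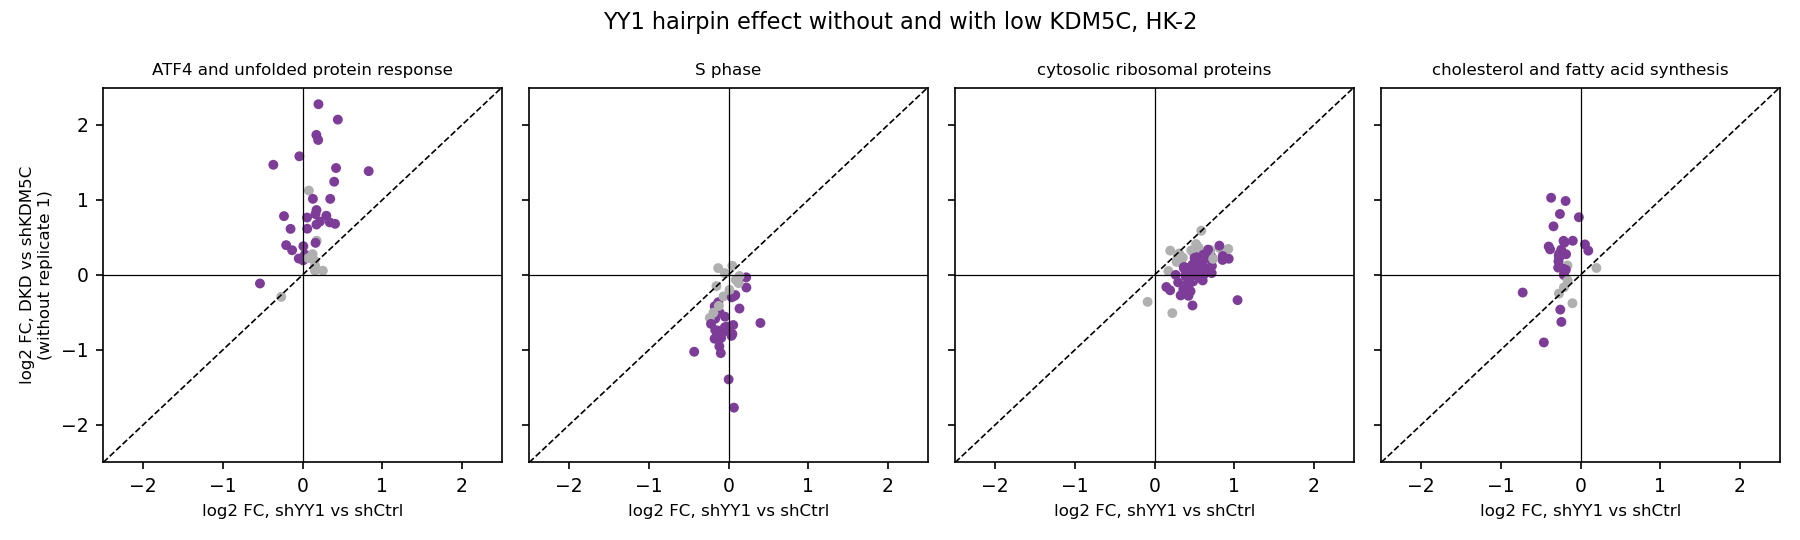
Log2 fold change in HK-2 of shYY1 against shCtrl (horizontal axis) and of double knockdown against shKDM5C without replicate 1 (vertical axis) for the members of 4 gene lists. Each point is a gene, purple where the interaction passed an adjusted p of 0.05 without replicate 1, and the dashed line marks equal values. The vertical axis also holds the second vector, GFP label and second selection of the double-knockdown cells, and any difference in the KDM5C hairpin. ATF4 list points lie mostly above the line (30 purple), S phase and ribosomal protein points mostly below it (30 and 60), and cholesterol and fatty acid points mostly above it.

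The same comparison in ACHN cells, which shares no library with HK-2, gave 4982 lower (30.9%) and 5085 higher genes (31.6%) of 16112. YY1 had a log2 fold change of -0.57 there (adjusted p = 8.18e-08), from 143 to 95.9 mean CPM, and the difference between the lines, HK-2 minus ACHN, was -1.09 (adjusted p = 0.000136, and -0.99 without replicate 1), so the depth of the knockdown differed between the lines compared below. The difference between the lines was below 0 for 2176 genes (12.2%) and above 0 for 2361 (13.2%) of 17888, and without HK-2 shKDM5C replicate 1 for 3829 (20.6%) and 4098 (22%) of 18609. Of the S phase list, called members were mostly lower in ACHN too, with 38 lower and 1 higher of 43 in ACHN, and 3 and 6 members differing between the lines below and above 0, or 4 and 18 without replicate 1. Called members of the ATF4 list were mostly higher in HK-2 and mostly lower in ACHN. In ACHN cells 26 of its members were lower and 6 higher (median -0.58), and the difference, HK-2 minus ACHN, was above 0 for 28 and below 0 for 1 with 12 libraries, and 32 and 4 without replicate 1. ASNS had a log2 fold change of -0.95 in ACHN (adjusted p = 1.12e-09), a difference of 2.81 (adjusted p = 5.78e-08, and 2.82 without replicate 1). Cholesterol and fatty acid genes had 28 lower and 1 higher in ACHN and a difference above 0 for 25 of 33, or 29 without replicate 1. Of G2/M genes 52 of 54 were lower in ACHN, with a difference above 0 for 27, or 42 without replicate 1. Of 26 targets of p53 tested in ACHN, 24 were higher and 2 lower, and the difference between lines was below 0 for 12 and above 0 for 3, or 16 and 5 without replicate 1. CDKN1A had 1.52 in ACHN (adjusted p = 8.08e-14), and its difference was not called with 12 libraries (0.85, adjusted p = 0.0558) but was without replicate 1 (0.56, adjusted p = 1.68e-06). The cytokines CXCL8 and CSF2 rose in both lines, by 2.16 and 2.74 on the log2 scale in ACHN, and the difference was not called for either (adjusted p = 0.41 and 0.804, and 0.129 and 0.49 without replicate 1). BCL2 changed by -0.18 in ACHN (difference -1.54, adjusted p = 2.42e-05, and -1.47 without replicate 1), LHX1 by -2.15 (difference 3.44, adjusted p = 1.74e-06, and 3.24 without replicate 1) and CLDN2 by 2.92 (difference -4.17, adjusted p = 3.49e-07, and -4.32 without replicate 1).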

How the data were processed

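RNA-seq was measured in 24 libraries, 6 of which carry the comparison. RNA was extracted with TRIzol and made into NEBNext Ultra libraries, whose strand is not kept. The authors aligned paired reads with HISAT2 (version 2.0.5 in the submitters' processing notes) to GRCh38 and counted them per gene of Ensembl release 84 with featureCounts (2.0.1 in the file headers, 1.5.0-p3 in the notes), and the deposited values are raw read counts. Overlapping and antisense genes cannot be told apart in such counts. Groups came from the labels. The members and gene lists were chosen with earlier results of these data known.

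Counts were tested with edgeR 4.0.16 (R 4.3.3) by the quasi-likelihood test, with TMM factors, filterByExpr and Benjamini-Hochberg adjustment, and genes with an adjusted p under 0.05 were called. Standard errors were the log2 fold change divided by the root of F. CPM used TMM factors over the libraries of one cell line. DESeq2 1.42.0, limma 3.58.1, other scalings and filters, a replicate block and leaving out each library were tried. Named genes were the targeted and paralogous genes, the study's cell cycle and apoptosis genes, the 14 largest fold changes each way among genes called in both fits without overlap and at 5 CPM or more, up to 5 of each of 34 lists by lowest p, 5 each way of the interaction and of the difference between lines, and the 6 each way that deviated most in replicate 1. The tests were also run on simulated counts drawn independently for each gene, without the base composition shift of shKDM5C replicate 1. That run cannot show how the tests act with that library. Genes with no symbol held 0.243% of the counts. An exact 2-sided rank test of 3 against 3 libraries cannot go below 0.1. With 2 against 3, as without replicate 1, it cannot go below 0.2. The results of a few list members that the rule named are not reported here.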

Additional observations from a re-analysis of the deposited data

Results flagged for a closer look

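The interaction of the hairpins in HK-2 cells passed the test for 1642 genes over 12 libraries and for 5065 without shKDM5C replicate 1. The second vector, GFP label and second selection of the double-knockdown cells enter it, as would a different KDM5C hairpin. These cannot be told apart from low KDM5C. Over 12 libraries, the 5 named genes with the most negative difference of log2 fold changes (shKDM5C minus shCtrl cells) were STUM (-3.17), SLC34A2 (-4.66), ZBED2 (-3.88), ATOH8 (-3.26) and LINC02532 (-3.59). The 5 named genes with the most positive difference were MMP1 (4.36), LINC02970 (4.44), INHBE (3.85), WNT9A (4.06) and IL11 (4.16). Without replicate 1 IL21R (5.29, against 3.77 with 12 libraries) lay above these 5.

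The effect of the double against the single knockdown differed between HK-2 and ACHN cells, by a test of the difference, for 4537 genes over 12 libraries and for 7927 without HK-2 shKDM5C replicate 1. Over 12 libraries, the most negative differences (HK-2 minus ACHN) among genes named by the rule were those of MIR3648-1 (-10.37), PPP1R1A (-7.92), TLL1 (-7.19), VCAM1 (-7.04) and CCND2 (-6.78). VCAM1 had log2 fold changes of -1.37 in HK-2 and 5.69 in ACHN, where it went from 0.61 to 31.6 mean CPM. The most positive differences were those of LINC03061 (6.94), LINC02593 (6.56), NFASC (6.03), ACTC1 (5.86) and VSTM4 (5.81), while without replicate 1 IL21R (7.09, against 5.59 with 12 libraries) lay above these 5. IL21R was near 0 in ACHN, with 0.234 mean CPM in shKDM5C and 0.051 in double-knockdown cells. It had 2 and 4 counts in HK-2 shKDM5C replicates 2 and 3, so its difference is imprecise. NFASC, a neuronal adhesion molecule, had 0 and 0.0978 mean CPM in HK-2 and 37.2 and 8.7 in ACHN. Its difference is therefore imprecise as well.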

How the results depend on the processing

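With all 6 libraries, the counts of 896 lower and 1005 higher genes depended on the method. They were 1539 and 1585 with DESeq2, 3564 and 3713 with limma voom and sample quality weights, 2435 and 2212 with all 4 HK-2 groups in the fit, and 324 and 473 with the replicate block. With one library left out, they ran from 143 to 3501 lower and from 240 to 3696 higher genes, with 3501 and 3696 without shKDM5C replicate 1, 507 and 583 without replicate 2, 433 and 510 without replicate 3, and 162 and 259, 176 and 270, and 143 and 240 without double-knockdown replicates 1, 2 and 3. Without shKDM5C replicate 1, the counts of 3501 and 3696 stayed within 1.5 times under every alternative run (3130 and 3343 with the replicate block), and with 1 more library left out they ran from 2592 to 3289 lower and 2816 to 3511 higher genes. Where this left 1 shKDM5C library, it was assumed to vary like the others. The interaction count of 1642 ran from 957 to 5065 and the count of 4537 that differed between lines ran from 3181 to 7927 with one library left out, the upper ends again without shKDM5C replicate 1. Same-numbered shKDM5C and double-knockdown libraries had deviations from their group means that correlated at -0.021, -0.00514 and -0.0612. Replicate 1 set most of the shKDM5C deviations, so these values cannot tell whether libraries of the same number share a batch. Over the genes named in the text, values with 1 of 6 libraries left out kept direction and call in 662 cases, lost the call in 149, gained it in 12 and changed sign in 5. Under the other alternatives these were 1044, 24, 35 and 1. Without shKDM5C replicate 1 they were 676, 7, 1 and 6 with another library left out, and 1096, 4, 2 and 2 otherwise. Genes near 0 changed sign. KDM5A went to 0.07 with quality weights and ran from -0.43 to 0.08 with 1 of 6 libraries left out. KDM5C, without shKDM5C replicate 1, ran from -0.01 to 0.05 with another library left out. CCND2 ran from -0.52 to 0.00 with 1 of 6 left out, and without shKDM5C replicate 1 it went to -0.01 with total counts and to -0.02, -0.00 and -0.06 with another library left out. LINC03061 ran from -0.17 to 0.02 with 1 of 6 left out, and without shKDM5C replicate 1 it went to 0.01 with the block and ran from -0.20 to 0.06. MIR3648-1 ran from -1.07 to 0.06 with 1 of 6 left out. The causes were not tested. With 3 libraries a group at 15926561 to 18732758 counts, fold changes of genes with few counts are imprecise.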

Other observations

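Clustered gene families were mostly below the filter on low counts. Of 53 clustered protocadherins, cell surface proteins whose promoters bind CTCF, 7 passed it with 6 libraries, 0 were called lower and 0 higher by edgeR (4 had an unadjusted p under 0.05), and 3 were higher without replicate 1. Of 29 germline genes 5 passed the filter, and 0 were lower and 0 higher (1 with an unadjusted p under 0.05). Of 65 histone genes of the replication clusters 13 passed it, and 0 were lower and 0 higher (2 with an unadjusted p under 0.05), against 2 higher without replicate 1.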
